A study of Mus musculus with 30 samples.

Results

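The checkpoint ligands and costimulatory molecules of blood monocytes and of glioma-infiltrating monocytes and macrophages were described over 8 sorted populations. The set held 10 genes listed by name, out of 45317 gene rows in the count tables. It was chosen with earlier results of these data known, so the counts of members called are a description of these genes. These were the ligands *Cd274*, *Pdcd1lg2*, *Cd80*, *Cd86*, *Icosl* and *Lgals9* and the receptors *Cd40*, *Havcr2*, *Cd200r1* and *Sirpa*. All 10 were among the 11566 genes that passed the filter on low counts and were tested. *Pdcd1lg2* and *Cd80* passed it through the brain populations, where they were higher, so their place among the tested genes says nothing by itself.

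The cells came from 4 tumor-bearing C57BL6.CCR2RFP/WT mice of both sexes, aged 12 to 18 weeks. In these mice RFP replaces 1 copy of *Ccr2*, so that every population, blood included, carried this allele. GL261, a mouse glioma cell line that carries a membrane-bound palmitoylated GFP, had been implanted in the brain, and no tumor-free mouse was among the groups. Ly6Chigh and Ly6Clow monocytes were sorted from blood by CD45, CD115, low CD11c and the level of Ly6C, with 3 mice each. From the brain, glioma monocytes (3 mice) and CCR2high and CCR2low macrophages (4 mice each) were sorted from CD11bhigh CD45high cells by F4/80, Ly6C and the CCR2-driven RFP, each as a GFPneg and a GFPpos fraction, where GFP marks the uptake of glioma-derived membranes. The labels' tissue field reads brain also for the blood monocytes, and the source names, which separate them, were followed. A replicate was 1 population of 1 mouse, numbered 22, 23, 24 or 26, which gave 6 blood and 22 brain replicates.

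Checkpoint ligands and costimulatory molecules set how strongly a T cell responds to the antigen that a myeloid cell presents to it. PD-L1 and PD-L2, the products of *Cd274* and *Pdcd1lg2*, bind the receptor PD-1 and dampen the T cell, whereas CD80 and CD86 bind CD28 to stimulate it or CTLA-4 to restrain it. Other members act on the myeloid cell itself: CD40 takes up the activating signal of CD40 ligand from T cells, and the CD200 receptor and SIRP-alpha carry inhibitory signals from CD200 and CD47 on neighbouring cells.

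The replicates held 1553616 to 5689644 counts on genes (median 2140230), and the ERCC spike-in RNA added before reverse transcription took 0.284 to 13.3% of counts. Values are given as normalized read counts, in counts of a gene per 1000000 counts (CPM) after TMM scaling, with SD over mice. The replicate with the highest spike-in share was that of Ly6Clow monocytes of mouse 23, with 0 counts of *Pdcd1lg2* and *Cd80*, 1 of *Cd200r1* and 10 of *Cd274*, and 3 counts, what a count of 0 allows, correspond to 1.16 CPM in it. The GFPpos glioma monocytes of mouse 22 were sequenced as 2 libraries, which were summed. They differed in some members, with 43.4 and 209 CPM of *Cd274* before TMM scaling, 0 and 116 counts of *Pdcd1lg2* and 0 and 82 counts of *Cd200r1*. The earlier library had 8.68% spike-in and 6969 genes with at least 5 reads, and the latter had 1.29% and 11777 genes. *Cd274* and *Pdcd1lg2* are therefore also given with the latter library alone where the GFPpos and GFPneg fractions are tested. A list of 6 monocyte and macrophage genes summed to 5100 to 8990 CPM in blood and 5110 to 9350 CPM in the brain, with no gene at 0 in any population. Microglia genes, which the CD45high gate was meant to exclude, summed to 1170 to 6280 CPM in the brain and 58.6 to 281 CPM in blood, where *Sall1* was at 0 in all replicates and *Tmem119* in those of Ly6Clow monocytes. T and NK cell genes summed to 236 to 1280 CPM in the brain, 914 to 1250 CPM in Ly6Clow and 21.7 to 164 CPM in Ly6Chigh monocytes, where *Ncr1* was at 0. In these bulk samples, fewer cells of a type and less RNA per cell cannot be told apart.

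Glioma monocytes were first compared with their blood counterparts. Brain cells were released by warm enzyme digestion and mechanical dissociation and passed through Percoll, whereas blood had its red cells lysed. Tissue and cell preparation therefore cannot be told apart in any comparison of brain with blood. In GFPneg glioma monocytes, 7 of the 10 members were higher than in Ly6Chigh blood monocytes and 0 were lower, at an adjusted p under 0.05 (quasi-likelihood test of edgeR, with p-values adjusted by Benjamini-Hochberg over every gene tested). Of all genes, 13.8% were called in this comparison, 11.1% higher and 2.68% lower. The replicates of 9 members lay above all Ly6Chigh replicates, as for 21.6% of genes, and those of *Sirpa* below, as for 14% of genes. The median log2 fold change was 1.99 over the members and 0.12 over all genes. Against the same Ly6Chigh replicates, 6 members were higher in GFPneg CCR2high macrophages, where 17.8% of genes were called and 12.7% were higher, and the replicates of 8 lay above (21.8% of genes). In GFPneg CCR2low macrophages 5 members were higher, where 20.2% of genes were called and 14.1% were higher, and the replicates of 9 lay above (21.1% of genes). The medians were 1.61 over the members and 0.15 over all genes in CCR2high, and 1.31 and 0.17 in CCR2low macrophages. *Cd274*, *Pdcd1lg2*, *Cd86*, *Lgals9* and *Havcr2* were higher in all 3, *Cd40* in glioma monocytes and CCR2high macrophages, and *Cd80* in glioma monocytes. *Icosl*, *Cd200r1* and *Sirpa* passed the test in none of them, with the lowest adjusted p at 0.095. Since the comparisons share the 3 Ly6Chigh replicates, a deviation of these would move all of them together.

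**Figure D1:**
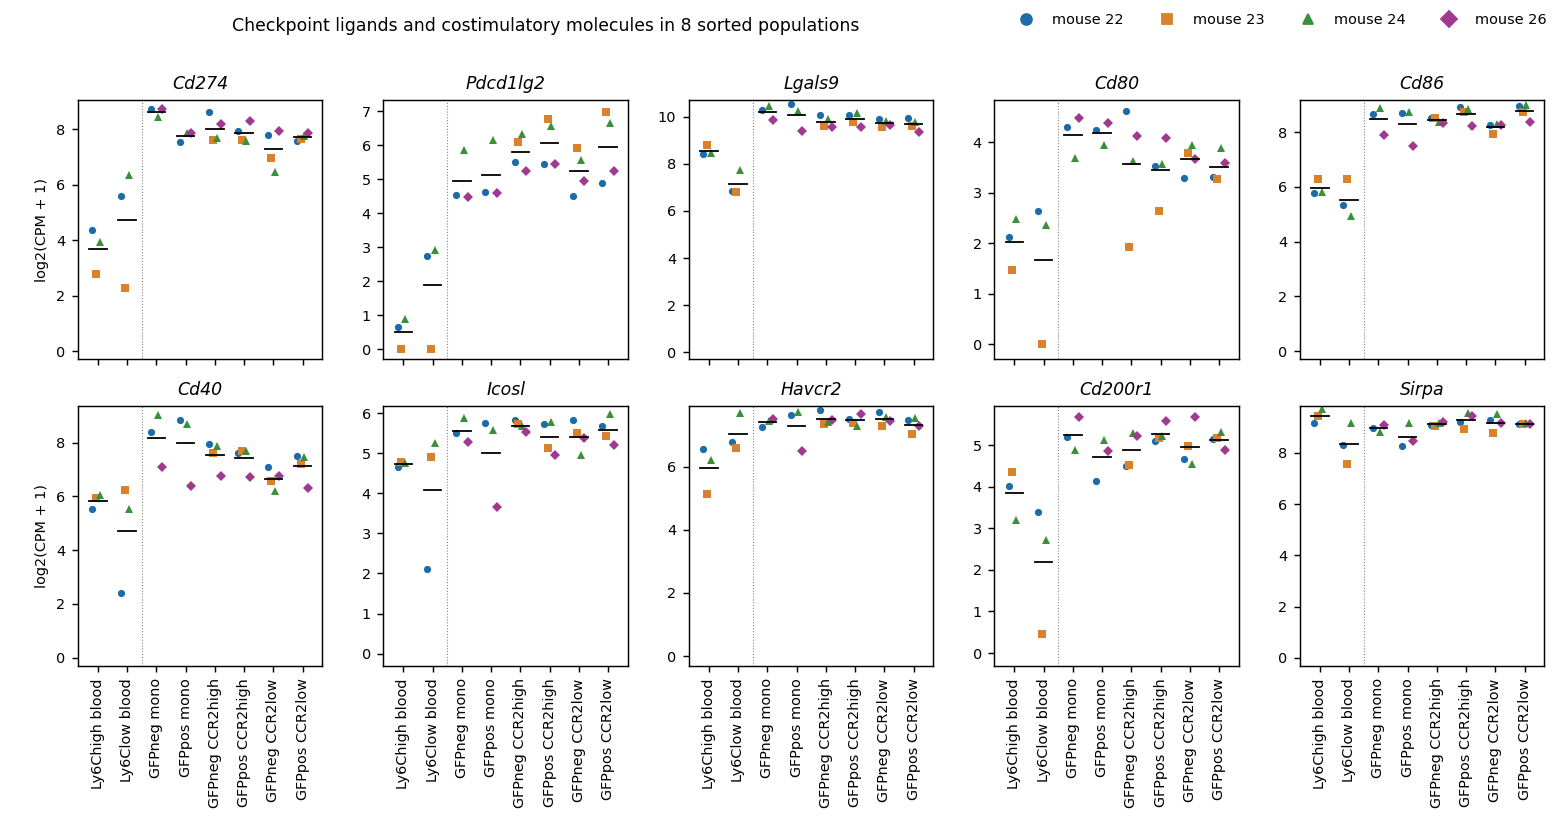
Normalized read count of each member (log2 of CPM + 1, vertical axis) in every replicate of the 8 populations (horizontal axis), with the mouse shown by the symbol and the mean of the log2 values by a black bar. All 22 brain replicates of Cd274, Pdcd1lg2, Cd86 and Lgals9 lie above the 6 blood replicates, whereas those of Sirpa overlap them.

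The ligands of PD-1 had the largest log2 fold changes among the members between Ly6Chigh monocytes and each GFPneg brain population. In Ly6Chigh monocytes of mice 22, 23 and 24, *Cd274* stood at 19.7, 5.86 and 14.2 CPM. In GFPneg glioma monocytes of mice 22, 24 and 26 it reached 424, 345 and 428 CPM. In GFPneg macrophages of mice 22, 23, 24 and 26 it was 394, 195, 204 and 291 CPM in the CCR2high and 223, 125, 87.9 and 246 CPM in the CCR2low population. Each of the 22 brain replicates exceeded each of the 6 blood replicates, whose highest was 79.9 CPM in Ly6Clow monocytes of mouse 24. *Cd274* was 29.9-fold higher in glioma monocytes than in Ly6Chigh monocytes (log2 fold change 4.90 ± 0.64 SE, adjusted p = 4.2e-06), 20.3-fold higher in CCR2high macrophages (4.34 ± 0.61, adjusted p = 9.4e-06) and 12.7-fold higher in CCR2low macrophages (3.67 ± 0.59, adjusted p = 5.2e-05).

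*Pdcd1lg2* was close to absent in Ly6Chigh monocytes, with 1, 0 and 4 counts in mice 22, 23 and 24, or 0.562, 0 and 0.836 CPM. The 0 of mouse 23 allows up to 1.76 CPM at the depth of that replicate, for counting error alone. In GFPneg glioma monocytes it was 22.1, 57.3 and 21.3 CPM in mice 22, 24 and 26. In mice 22, 23, 24 and 26 it was 44.8, 66.8, 78.9 and 37.1 CPM in GFPneg CCR2high macrophages and 21.5, 59.0, 46.7 and 30.1 CPM in GFPneg CCR2low macrophages. The lowest of all brain replicates, at 21.3 CPM, lay above the highest blood value of 6.51 CPM. The log2 fold change over Ly6Chigh monocytes was 5.79 ± 0.99 in glioma monocytes (adjusted p = 0.00015), 6.55 ± 0.99 in CCR2high macrophages (adjusted p = 2.5e-05) and 6.02 ± 0.98 in CCR2low macrophages (adjusted p = 5.4e-05), and the size of these values rests on the few blood counts.

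*Cd274* and *Pdcd1lg2* lie on the same strand of chromosome 19 with 22823 bases between them, *Cd274* at chr19:29367455-29388095 and *Pdcd1lg2* at chr19:29410919-29471161 (GRCm38, GENCODE vM21). Since they neighbour each other and were both higher in the brain, the promoters are shown, each 250 bases before to 50 bases after the start site, 5′ to 3′, from RefSeq on GRCm38.p6. *Lgals9*, described further on, is shown beside them as the promoter that held a searched motif, which is in capitals.
Cd274 promoter, chr19:29367188-29367487, plus strand: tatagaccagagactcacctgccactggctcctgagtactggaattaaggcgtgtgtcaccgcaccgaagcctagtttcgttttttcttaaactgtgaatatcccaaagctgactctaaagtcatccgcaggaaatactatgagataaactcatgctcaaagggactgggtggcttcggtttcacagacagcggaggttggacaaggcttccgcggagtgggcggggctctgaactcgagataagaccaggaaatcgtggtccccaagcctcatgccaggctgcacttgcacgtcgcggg
Pdcd1lg2 promoter, chr19:29410669-29410968, plus strand: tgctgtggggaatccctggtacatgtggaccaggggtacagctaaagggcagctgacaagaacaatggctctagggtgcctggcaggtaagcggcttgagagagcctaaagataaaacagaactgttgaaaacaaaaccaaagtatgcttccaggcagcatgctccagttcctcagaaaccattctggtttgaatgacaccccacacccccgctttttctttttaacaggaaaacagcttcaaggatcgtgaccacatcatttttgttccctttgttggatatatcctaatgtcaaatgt
Lgals9 promoter, chr11:78984875-78985174, minus strand: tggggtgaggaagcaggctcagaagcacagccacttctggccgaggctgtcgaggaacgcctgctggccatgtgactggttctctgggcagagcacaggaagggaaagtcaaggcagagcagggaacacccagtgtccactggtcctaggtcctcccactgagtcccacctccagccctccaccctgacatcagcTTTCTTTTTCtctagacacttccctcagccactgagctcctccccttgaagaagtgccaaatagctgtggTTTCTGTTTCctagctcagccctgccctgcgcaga

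Of the 10 members, 6 had a promoter in the table used, and 3 motifs were searched in them on both strands: TTCNNNGAA, the core of GAS elements, GAAANNGAAA, the core of elements bound by interferon regulatory factors, and GGGNNTTTCC, an NF-kB-type motif. Only *Lgals9* held a match, which was the interferon regulatory factor motif read on the opposite strand, at positions -55 to -46 and 15 to 24 from the start site. Among 32851 promoters of the same length, 3.44% held that motif, 8.30% the GAS-type and 1.63% the NF-kB-type motif. No match in the windows of *Cd274*, *Pdcd1lg2*, *Cd80*, *Havcr2* and *Icosl* says only that these letters are not in these 300 bases.

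*Cd80* and *Cd86*, the ligands shared by CD28 and CTLA-4, lay at very different levels. In Ly6Chigh monocytes of mice 22, 23 and 24, *Cd86* was 53.9, 76.7 and 55.8 CPM, and in GFPneg glioma monocytes of mice 22, 24 and 26 it was 403, 465 and 237 CPM. In GFPneg macrophages it spanned 319 to 368 CPM in the CCR2high and 244 to 312 CPM in the CCR2low population. All 22 brain replicates lay above the highest blood value, 76.7 CPM. The fold over Ly6Chigh monocytes was 5.93 in glioma monocytes (log2 fold change 2.57 ± 0.34, adjusted p = 5.9e-06), 5.55 in CCR2high macrophages (2.47 ± 0.33, adjusted p = 4.6e-06) and 4.70 in CCR2low macrophages (2.23 ± 0.33, adjusted p = 1.5e-05).

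*Cd80* rested on few reads, with 6, 3 and 22 counts in Ly6Chigh monocytes of mice 22, 23 and 24, or 3.37, 1.76 and 4.60 CPM. It was 18.6, 11.8 and 21.3 CPM in GFPneg glioma monocytes of mice 22, 24 and 26, all above the Ly6Chigh replicates. The log2 fold change there was 2.35 ± 0.78 (adjusted p = 0.043), and this call was lost when any of the 6 replicates of the comparison was left out, with adjusted p between 0.0578 and 0.192, and with mouse as a replicate block (2.02, adjusted p = 0.0604). In GFPneg CCR2high macrophages of mice 22, 23, 24 and 26 *Cd80* was 23.3, 2.81, 11.3 and 16.5 CPM, so that mouse 23 fell among the blood replicates. *Cd80* passed the test neither there (1.99 ± 0.74, adjusted p = 0.064) nor in CCR2low macrophages (1.82 ± 0.74, adjusted p = 0.084). Without the CCR2high replicate of mouse 23 the CCR2high value was 2.27 (adjusted p = 0.0337), and with the replicate block the CCR2low value was 1.93 (adjusted p = 0.0432). By the Wald test of DESeq2, *Cd80* passed in both macrophage populations. It also passed in both without the replicates of the highest spike-in share, Ly6Clow of mouse 23 and GFPpos glioma monocytes of mouse 24. When only the populations compared were fitted, it passed in CCR2low macrophages. The ratio of *Cd86* to *Cd80*, in CPM per kb of exon within a replicate, was 11.2 to 40.0 in GFPneg glioma monocytes, 15.7 to 133 in GFPneg CCR2high and 19.3 to 34.9 in GFPneg CCR2low macrophages.

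*Icosl*, the ligand of the T cell costimulator ICOS, did not pass the test in the main fit. Its means were 25.5 ± 1.16 CPM in Ly6Chigh monocytes (SD, n = 3), 46.9 ± 10.4 in GFPneg glioma monocytes (n = 3), 50.9 ± 4.43 in GFPneg CCR2high (n = 4) and 42.7 ± 10.6 CPM in GFPneg CCR2low macrophages (n = 4). The log2 fold changes over Ly6Chigh monocytes were 0.88 ± 0.54 (adjusted p = 0.35), 1.0 ± 0.51 (adjusted p = 0.19) and 0.74 (adjusted p = 0.35). When only the populations compared were fitted by edgeR, *Icosl* passed in CCR2high macrophages (adjusted p = 0.0121). Of the 22 brain replicates, 17 lay above all blood replicates.

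*Cd40*, the receptor for the CD40 ligand of activated T cells, was 44.9, 60.9 and 65.6 CPM in Ly6Chigh monocytes of mice 22, 23 and 24. It was 336, 523 and 137 CPM in GFPneg glioma monocytes of mice 22, 24 and 26. In mice 22, 23, 24 and 26 it was 249, 197, 237 and 107 CPM in GFPneg CCR2high macrophages and 136, 94.1, 72.6 and 108 CPM in GFPneg CCR2low macrophages. All of these lay above the Ly6Chigh replicates, and mouse 26 was the lowest of the glioma monocytes and of the CCR2high macrophages. *Cd40* was 5.79-fold higher in glioma monocytes than in Ly6Chigh monocytes (log2 fold change 2.53 ± 0.64, adjusted p = 0.0080) and 3.44-fold higher in CCR2high macrophages (1.78 ± 0.60, adjusted p = 0.040). In CCR2low macrophages it did not pass the test (0.84 ± 0.59, adjusted p = 0.36), but it passed there when only the populations compared were fitted by edgeR (adjusted p = 0.0415). The glioma monocyte call was lost without the GFPneg replicate of mouse 24 (adjusted p = 0.0574) or the Ly6Chigh replicate of mouse 22 (adjusted p = 0.0515). The CCR2high call was lost when any of 6 of its 7 replicates was left out, with adjusted p of 0.0742 to 0.155, and kept without the CCR2high replicate of mouse 26.

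*Lgals9* encodes galectin-9, a secreted lectin for which TIM-3, the product of *Havcr2*, is a described receptor. It was the most abundant ligand of the set, with 346, 442 and 353 CPM in Ly6Chigh monocytes of mice 22, 23 and 24. It was 1229, 1386 and 919 CPM in GFPneg glioma monocytes of mice 22, 24 and 26, 765 to 1063 CPM in GFPneg CCR2high and 758 to 961 CPM in GFPneg CCR2low macrophages. Again all 22 brain replicates lay above all blood replicates. The folds over Ly6Chigh monocytes were smaller than those of *Cd274*, at 3.10 in glioma monocytes (log2 fold change 1.63 ± 0.28, adjusted p = 0.00013), 2.34 in CCR2high macrophages (1.23 ± 0.26, adjusted p = 0.0012) and 2.24 in CCR2low macrophages (1.16 ± 0.26, adjusted p = 0.0018).

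*Havcr2* was 93.3, 34.0 and 74.0 CPM in Ly6Chigh monocytes of mice 22, 23 and 24. It was 153, 175 and 182 CPM in GFPneg glioma monocytes of mice 22, 24 and 26, 162 to 220 CPM in GFPneg CCR2high and 156 to 211 CPM in GFPneg CCR2low macrophages. These lay above the Ly6Chigh replicates and above the Ly6Clow replicates of mice 22 and 23 (109 and 95.2 CPM). Not all of them exceeded the Ly6Clow replicate of mouse 24 (208 CPM), so that only 3 of 22 brain replicates exceeded all blood. Against Ly6Chigh monocytes *Havcr2* was 2.53-fold higher in glioma monocytes (1.34 ± 0.33, adjusted p = 0.0062) and 2.72-fold higher in CCR2high (1.44 ± 0.32, adjusted p = 0.0017) and in CCR2low macrophages (1.44 ± 0.32, adjusted p = 0.0015). The glioma monocyte call was lost without the Ly6Chigh replicate of mouse 23 (0.96, adjusted p = 0.0844), and those of all 3 populations were lost with the earlier library of each sample alone (adjusted p = 0.359, 0.221 and 0.203), a setting that brings in a Ly6Clow library of mouse 23 otherwise left out for its few genes.

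In the main fit, the inhibitory receptors *Cd200r1* and *Sirpa* did not pass the test against Ly6Chigh monocytes in any of the GFPneg populations. *Cd200r1* was 15.2, 19.3 and 8.15 CPM in Ly6Chigh monocytes of mice 22, 23 and 24 and 35.6, 28.4 and 49.7 CPM in GFPneg glioma monocytes of mice 22, 24 and 26. The groups did not overlap, and the log2 fold change was 1.43 ± 0.56 (adjusted p = 0.095). It was 1.06 ± 0.53 (adjusted p = 0.18) in CCR2high and 1.17 (adjusted p = 0.13) in CCR2low macrophages. Without both replicates of the highest spike-in share, *Cd200r1* passed in each of these populations. By the Wald test of DESeq2 it passed in glioma monocytes and CCR2low macrophages. It also passed in glioma monocytes when only the populations compared were fitted. *Sirpa* was 567, 698 and 839 CPM in Ly6Chigh monocytes and 497, 448 and 545 CPM in GFPneg glioma monocytes, the only member whose brain replicates lay below them (log2 fold change -0.50 ± 0.29, adjusted p = 0.31). Over all replicates *Sirpa* was 186 to 839 CPM in blood and 307 to 748 CPM in the brain, and none of the 22 brain replicates lay outside the blood range. Both receptors have close relatives, and how the counting treated reads that match several of them was not tested. *Cd200r4* was 0 to 6.22 CPM in blood and 27.4 to 128 CPM in the brain. *Sirpb1a* was 140 to 311 CPM in blood and 22.7 to 99.3 CPM in the brain, and *Sirpb1b* 105 to 162 and 26 to 101 CPM. The ranges of *Sirpb1c* overlapped, at 203 to 546 CPM in blood and 113 to 446 CPM in the brain. The values of *Cd200r1* and *Sirpa* are therefore uncertain. In the same way, *Cd274* shares 511 exonic bases (14.1% of its exons) with a gene on the opposite strand, and whether the counting used strand is not given in the sources used here.

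**Figure D2:**
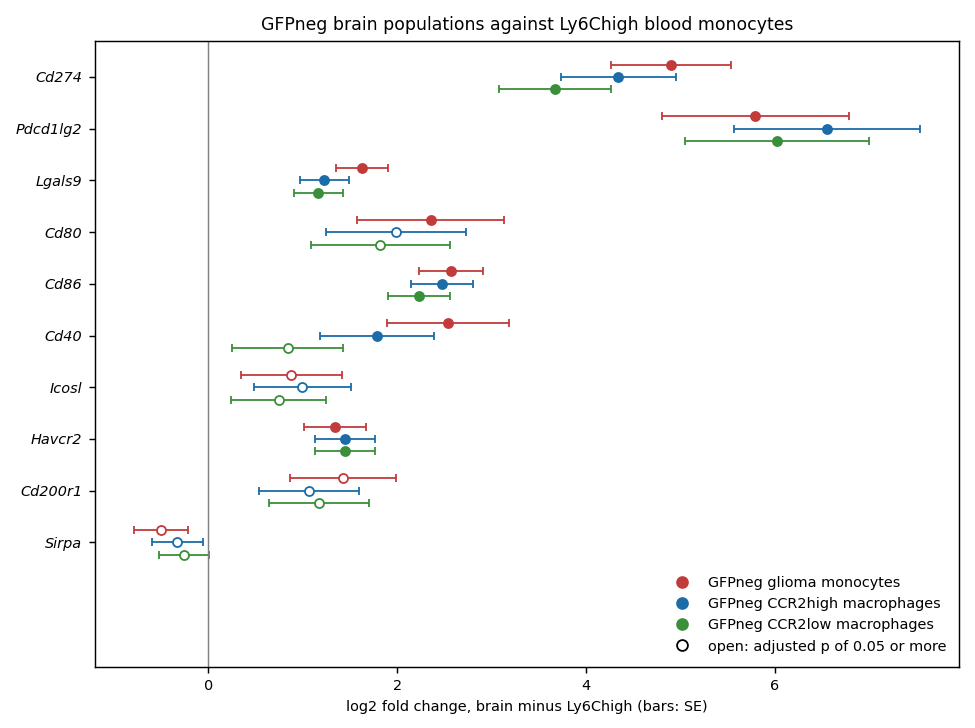
Log2 fold change of each member (vertical axis) in GFPneg glioma monocytes, CCR2high and CCR2low macrophages over Ly6Chigh blood monocytes (horizontal axis), with bars for the SE and open symbols where the adjusted p was 0.05 or more. Pdcd1lg2 and Cd274 lie farthest to the right, from 3.67 to 6.55, and Sirpa alone lies left of 0.

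All of these values are relative to the other genes of a library. When libraries were scaled to the ERCC spike-in instead, each member kept its direction against Ly6Chigh monocytes, and the median over all genes moved to -0.04, 0.15 and 0.01. The SE grew, and 2, 2 and 1 members passed in glioma monocytes, CCR2high and CCR2low macrophages. These were *Cd274* (4.66, adjusted p = 0.0285, and 4.22, adjusted p = 0.0351) and *Pdcd1lg2* (5.37, adjusted p = 0.0232, and 6.45, adjusted p = 0.00488) in the former pair and *Pdcd1lg2* alone in the latter (5.63, adjusted p = 0.0117). With the earlier library of each sample alone, *Cd80* in glioma monocytes (adjusted p = 0.0698) and *Cd40* in CCR2high macrophages (adjusted p = 0.067) also lost their call.

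Ly6Clow monocytes, which patrol the vessel wall, gave another view from the blood. Against them, 7 members were higher in GFPneg glioma monocytes, where 18.5% of all genes were called and 13% were higher. In GFPneg CCR2high macrophages 7 were higher (23.1% of genes called, 14.7% higher), and in GFPneg CCR2low macrophages 5 (23.4% called, 15% higher), with 0 lower in each. The medians over the members were 2.91, 2.39 and 1.94, and those over all genes 0.24, 0.25 and 0.26. These comparisons share the 3 Ly6Clow replicates, and their brain replicates with those above.

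For the ligands of PD-1 the log2 fold changes over Ly6Clow monocytes were smaller than those over Ly6Chigh monocytes, while the difference between the blood populations themselves, given further on, did not pass the test. *Cd274* was 47.2, 3.86 and 79.9 CPM and *Pdcd1lg2* 5.66, 0 and 6.51 CPM in Ly6Clow monocytes of mice 22, 23 and 24, with mouse 23, the replicate with the highest spike-in share, lowest for both. In glioma monocytes *Cd274* was 9.10-fold (3.19 ± 0.58, adjusted p = 0.00029) and *Pdcd1lg2* 8.15-fold higher (3.03 ± 0.79, adjusted p = 0.0085), the latter lost without the GFPneg glioma monocytes of mouse 24 (2.38, adjusted p = 0.0569). In CCR2high macrophages they differed by 2.63 (adjusted p = 0.0010) and 3.79 (adjusted p = 0.0010), and in CCR2low macrophages by 1.96 (adjusted p = 0.0094) and 3.26 (adjusted p = 0.0033) on the log2 scale.

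*Lgals9* and *Cd86* had the lowest adjusted p of the members against Ly6Clow monocytes. *Lgals9* was 115, 111 and 210 CPM in them, against 919 to 1386 CPM in GFPneg glioma monocytes (8.10-fold, 3.02 ± 0.29, adjusted p = 3.1e-08), and *Cd86* was 39.2, 76.7 and 29.3 CPM (7.61-fold higher in glioma monocytes, 2.93 ± 0.35, adjusted p = 9.1e-07). *Cd200r1*, at 9.44, 0.386 and 5.62 CPM in Ly6Clow monocytes, was 7.38-fold higher in glioma monocytes (2.88 ± 0.60, adjusted p = 0.0011) and passed also in CCR2high (2.52, adjusted p = 0.0021) and CCR2low macrophages (2.63, adjusted p = 0.0015). *Cd40* was 4.25, 73.6 and 45.3 CPM in them. It passed in glioma monocytes (3.01 ± 0.66, adjusted p = 0.0019) and CCR2high macrophages (2.26, adjusted p = 0.0096), but not in CCR2low macrophages (1.31, adjusted p = 0.11), where it was 1.75 with the replicate block (adjusted p = 0.0209) and 1.98 without Ly6Clow monocytes of mouse 23 (adjusted p = 0.0487).

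*Cd80* was 5.19, 0 and 4.14 CPM in Ly6Clow monocytes and passed in glioma monocytes (2.46 ± 0.78, adjusted p = 0.029) and CCR2high macrophages (2.09, adjusted p = 0.043). The glioma monocyte call was lost without the glioma monocytes of mouse 22 (adjusted p = 0.0698) or 26 (adjusted p = 0.0861) or the Ly6Clow replicate of mouse 23 (1.86, adjusted p = 0.0626). The CCR2high call was lost without the CCR2high replicates of mice 22 (adjusted p = 0.111), 24 (adjusted p = 0.0592) or 26 (adjusted p = 0.0878) or that Ly6Clow replicate (1.48, adjusted p = 0.108). *Cd80* was 1.93 higher in CCR2low macrophages (adjusted p = 0.060), 2.42 without Ly6Clow monocytes of mouse 22 (adjusted p = 0.050) and 2.19 with the block (adjusted p = 0.0224). There it also passed by the Wald test of DESeq2. *Icosl*, *Havcr2* and *Sirpa* did not pass in any of the 3, although *Icosl* passed in CCR2high macrophages by the Wald test of DESeq2. Without Ly6Clow monocytes of mouse 24, *Sirpa* passed in all 3, at 1.01 (adjusted p = 0.0109), 1.18 (adjusted p = 0.00251) and 1.25 (adjusted p = 0.00149), *Havcr2* in CCR2high (0.87, adjusted p = 0.0467) and CCR2low macrophages (0.87, adjusted p = 0.0450) and *Icosl* in CCR2high macrophages (1.70, adjusted p = 0.0318). *Sirpa* also passed in CCR2low macrophages without the CCR2low replicate of mouse 23 (0.83, adjusted p = 0.0446), and with the block in CCR2high (0.71, adjusted p = 0.0214) and CCR2low macrophages (0.76, adjusted p = 0.0144). When only the populations compared were fitted, *Cd86* and *Lgals9* alone passed in each of these 3 comparisons. With the earlier library of each sample alone, *Pdcd1lg2* in glioma monocytes (adjusted p = 0.0628), *Cd80* (adjusted p = 0.0694) and *Cd200r1* (adjusted p = 0.0531) in CCR2high and *Cd274* in CCR2low macrophages (adjusted p = 0.0705) lost their call. In CCR2low macrophages another member gained a call in this setting, so the count there did not change. With spike-in scaling, where the median of all genes moved to between 1.70 and 1.87, *Cd80* in glioma monocytes (adjusted p = 0.0757) and CCR2high macrophages (adjusted p = 0.073) and *Cd274* in CCR2low macrophages (adjusted p = 0.0624) did not pass and *Cd40* in CCR2low macrophages did (3.23, adjusted p = 0.019), with all members higher than in Ly6Clow monocytes.

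Between the blood populations themselves, 2 members were called, where 5.61% of all genes were called, 1.96% higher and 3.65% lower in Ly6Chigh than in Ly6Clow monocytes. *Lgals9* was 2.62-fold higher in Ly6Chigh monocytes (380 ± 53.8 against 145 ± 56.0 CPM, n = 3 each, 1.39 ± 0.27, adjusted p = 0.0029), and its replicates lay above those of Ly6Clow, as for 10.6% of genes. *Sirpa* was 1.95-fold higher (701 ± 136 against 359 ± 198 CPM, 0.96 ± 0.29, adjusted p = 0.048). The *Sirpa* call was lost without Ly6Chigh monocytes of mouse 23 (1.04, adjusted p = 0.109) or 24 (0.82, adjusted p = 0.189) or Ly6Clow monocytes of mouse 22 (0.92, adjusted p = 0.131) or 23 (0.69, adjusted p = 0.190).

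*Havcr2* stood at 109, 95.2 and 208 CPM in Ly6Clow monocytes, all above the Ly6Chigh replicates, as for 7.23% of genes (-1.03 ± 0.33, adjusted p = 0.062). *Cd274* (-1.71 ± 0.57, adjusted p = 0.076) and *Pdcd1lg2* (-2.77 ± 1.01, adjusted p = 0.10) had lower fitted levels in Ly6Chigh monocytes without passing. Without Ly6Clow monocytes of mouse 23, *Cd274* (-2.22, adjusted p = 0.00179), *Pdcd1lg2* (-3.27, adjusted p = 0.0392) and *Havcr2* (-1.20, adjusted p = 0.0428) passed. With the replicate block, *Pdcd1lg2* (-2.97, adjusted p = 0.0375) and *Havcr2* (-1.06, adjusted p = 0.0244) passed. With spike-in scaling, where the median of all genes moved from 0.02 to 1.69, 0 members passed by edgeR, with 5 at an unadjusted p under 0.05, and *Havcr2* turned to 0.49 (adjusted p = 0.69).

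Within the brain, no member passed the test between GFPneg populations. Between glioma monocytes and CCR2high macrophages 0 of 10 were called by edgeR, with 0 at an unadjusted p under 0.05 and 0 by DESeq2, where edgeR called 0.182% of genes. Between CCR2high and CCR2low macrophages, 0 were called, with 0 at an unadjusted p under 0.05 and 0 by DESeq2, where edgeR called 0% of genes and 276 genes had an unadjusted p under 0.05. The CCR2high replicates of *Cd86* (319 to 368 CPM) lay above all CCR2low replicates (244 to 312 CPM), as for 1.5% of genes (0.24 ± 0.28, adjusted p = 1.0). Between glioma monocytes and CCR2low macrophages 0 were called by edgeR and 0 by DESeq2, where edgeR called 1.21% of genes, and 2 members and 8.46% of genes had an unadjusted p under 0.05. These members were *Cd274* (1.23 ± 0.49, adjusted p = 0.39) and *Cd40* (1.69 ± 0.57, adjusted p = 0.21). In both, the 3 glioma monocyte replicates lay above the 4 CCR2low replicates, as they did for 7.36% of all genes. *Cd274* passed when both replicates with the highest spike-in share, Ly6Clow of mouse 23 and GFPpos glioma monocytes of mouse 24, were left out (adjusted p = 0.0446).

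The GFPpos fractions, cells that had taken up glioma-derived membranes, were compared with the GFPneg fractions of the same population. edgeR called 0 of 10 members and 0% of genes in each of the 3 populations, and DESeq2 called 0 members. At an unadjusted p under 0.05 there were 0 members in glioma monocytes (6.39% of genes), 0 in CCR2high (0.597%) and 1 in CCR2low macrophages (1.59%). That member was *Cd86* in CCR2low macrophages, which was 498, 420, 503 and 327 CPM in the GFPpos and 304, 244, 312 and 308 CPM in the GFPneg fraction of mice 22, 23, 24 and 26. GFPpos replicates lay above all GFPneg replicates, as for 1.21% of genes, and *Cd86* was higher in 4 of 4 mice (0.58 ± 0.28, adjusted p = 1.0).

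*Cd274* in glioma monocytes of mice 22, 24 and 26 was 186, 231 and 232 CPM in the GFPpos against 424, 345 and 428 CPM in the GFPneg fraction. It was lower in 3 of 3 mice, and the groups did not overlap, as was so in this direction for 6.93% of genes, but the difference did not pass the test (-0.88 ± 0.53, adjusted p = 0.85). With spike-in scaling, where 0 members were called by edgeR and 5 had an unadjusted p under 0.05 in this comparison, *Cd274* was -2.24 (adjusted p = 0.454). It was -0.83 with the later library of mouse 22 alone (adjusted p = 0.834). In macrophages *Cd274* was higher in the GFPpos fraction in 2 of 4 mice of each population. *Pdcd1lg2* was higher in the GFPpos fraction in 3 of 3 mice of glioma monocytes, 3 of 4 of CCR2high and 4 of 4 of CCR2low macrophages, with log2 fold changes of 0.19, 0.34 and 0.88 ± 0.61 that did not pass. With the later library of mouse 22 alone the glioma monocyte value was 0.25 (adjusted p = 0.96). Under spike-in scaling the values of glioma monocytes and CCR2high macrophages turned to -1.51 and -0.02, where the median of all genes moved to -1.37 and -0.27. *Havcr2* was lower in GFPpos CCR2low macrophages in 4 of 4 mice (-0.18 ± 0.28, and 0.19 with spike-in scaling). Whether the difference between fractions itself differed between populations was tested in 30 tests, 3 for each member, of which 0 passed by edgeR and 0 had an unadjusted p under 0.05 (lowest adjusted p 0.9999).

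**Figure D3:**
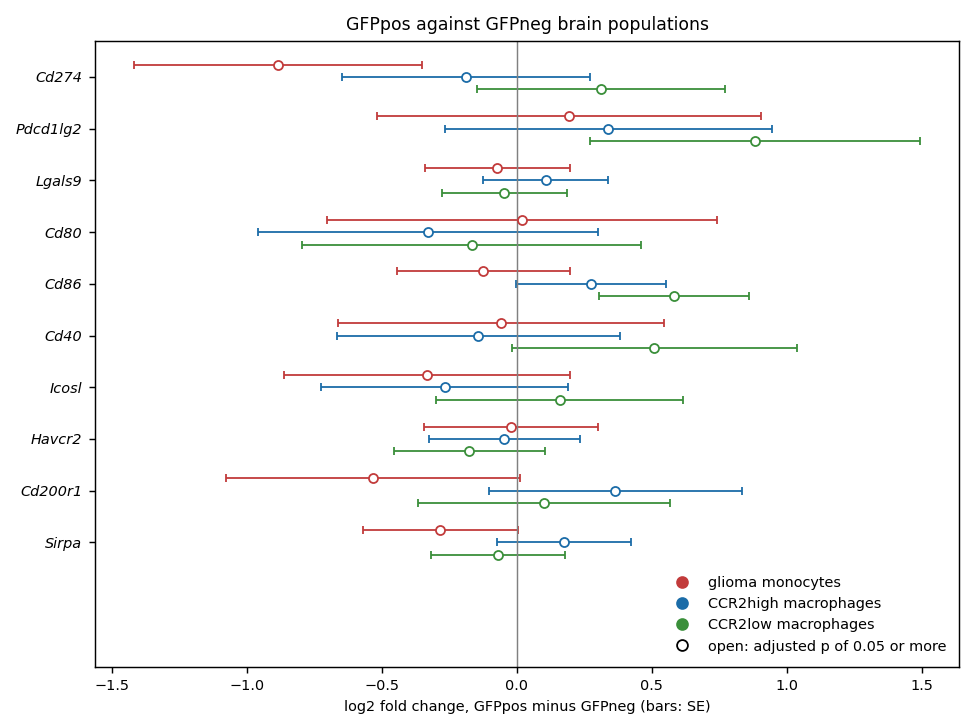
Log2 fold change of each member (vertical axis) between the GFPpos and GFPneg fractions of glioma monocytes, CCR2high and CCR2low macrophages (horizontal axis), with bars for the SE and open symbols where the adjusted p was 0.05 or more. All 30 symbols are open, and the value farthest from 0 is -0.88, for Cd274 in glioma monocytes and for Pdcd1lg2 in CCR2low macrophages with the opposite sign.

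Levels can be set between genes only per length. As mean CPM per kb of exon, *Lgals9* was the highest member in Ly6Chigh monocytes (178 ± 25.2, n = 3) and in GFPneg glioma monocytes (551 ± 111, n = 3), CCR2high (417 ± 66.9, n = 4) and CCR2low macrophages (399 ± 43.9, n = 4). In Ly6Clow monocytes *Sirpa* came highest, at 73.2 ± 40.4, with *Lgals9* at 67.9 ± 26.2, a gap within their spread. *Cd274* ranked 8 of 10 in Ly6Chigh monocytes, at 3.66 ± 1.92 CPM per kb, and 2 of 10 in GFPneg glioma monocytes, at 110 ± 13. In GFPpos glioma monocytes, with the libraries of mouse 22 summed, it ranked 6 of 10, at 59.7 ± 7.28 CPM per kb. The next 2 in GFPneg glioma monocytes, *Sirpa* at 101 ± 9.89 and *Cd86* at 101 ± 32.3, lay within the spread of *Cd274*. *Pdcd1lg2* went from the lowest rank in Ly6Chigh monocytes, at 0.238 ± 0.217, to rank 7 in each GFPneg brain population, at 17.1 ± 10.5 in glioma monocytes. *Cd80* was the lowest member in all 3 GFPneg brain populations, at 4.65 ± 1.32 CPM per kb in glioma monocytes, against 10.1 ± 2.25 of *Icosl* and 97.4 ± 56.5 of *Cd40*.

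**Figure D4:**
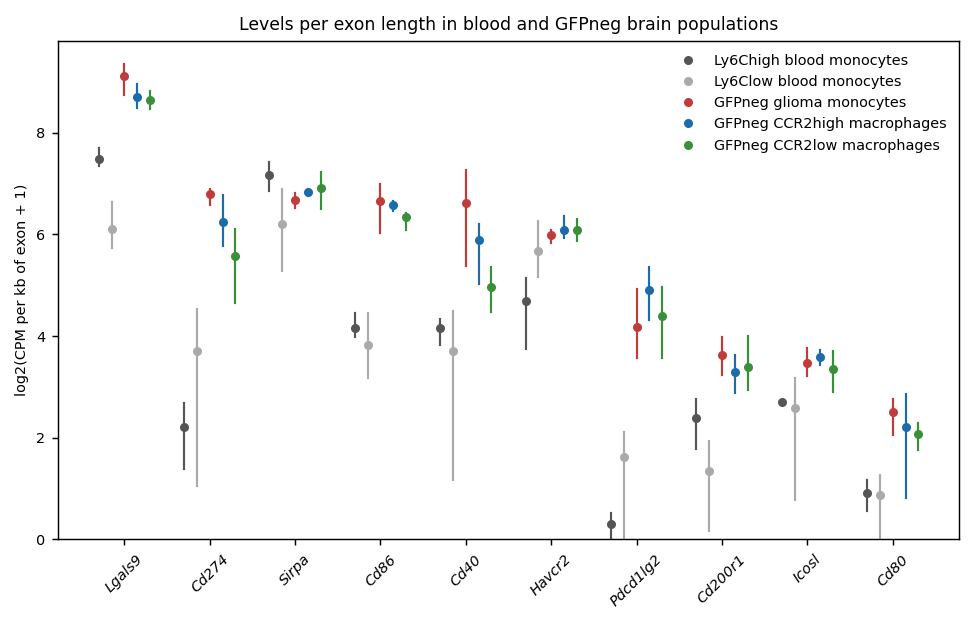
Level of each member per exon length (log2 of CPM per kb of exon + 1) in the 2 blood and the 3 GFPneg brain populations, with a dot for the mean and a line from the lowest to the highest replicate. Lgals9 is highest and Cd80 lowest in each of the brain populations, and Cd274 moves from 3.66 CPM per kb in Ly6Chigh monocytes to 110 in glioma monocytes.

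The ratio of *Cd274* to *Pdcd1lg2*, in CPM per kb of exon within a replicate, was 3.26 to 10.9 in GFPneg and 1.8 to 5.4 in GFPpos glioma monocytes. It was 1.40 to 4.76 in GFPneg and 0.972 to 4.01 in GFPpos CCR2high macrophages, and 1.02 to 5.62 in GFPneg and 0.871 to 3.63 in GFPpos CCR2low macrophages. These ranges overlap, differences between them were not tested, and the glioma monocytes lack mouse 23. The GFPpos glioma monocyte range uses the summed libraries of mouse 22. Over the 28 replicates the log2 CPM of the 2 genes correlated with Pearson's r of 0.871, and over the 22 brain replicates alone with r of -0.333, as a description of replicates that share mice and libraries.

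Some members also differed between the 4 mice, but which ones passed depended on the scaling, as given below. A test of mouse over the 22 brain replicates, with population in the fit (edgeR F test), was added after the values had been seen. It called *Pdcd1lg2* (adjusted p = 9.6e-06), *Lgals9* (adjusted p = 0.00071), *Cd40* (adjusted p = 0.0042) and *Cd86* (adjusted p = 0.012), where 19.6% of genes were called. *Pdcd1lg2* in mice 23 and 24 exceeded that in mice 22 and 26 in 6 of 6 brain populations, although mouse 23 gave no glioma monocytes, so that in both glioma monocyte populations mouse 24 alone stood against mice 22 and 26. The medians were 26.1, 87.8, 74.2 and 33.6 CPM in mice 22, 23, 24 and 26. Mouse 26 was the lowest in 5 of 6 populations for *Cd86*, *Icosl*, *Lgals9* and *Cd40*, with a median *Cd40* of 105 CPM against 172 to 223 CPM in the other mice. *Cd274* ran otherwise, with mouse 26 highest in 5 of 6 populations, and did not pass (adjusted p = 0.066).

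Within macrophages alone, *Pdcd1lg2*, *Lgals9*, *Cd40* and *Cd274* passed (17.9% of genes called). In the GFPneg populations alone *Pdcd1lg2* (adjusted p = 0.019) and *Cd274* (adjusted p = 0.034) passed (10.3% called), and in the GFPpos populations alone *Pdcd1lg2* (adjusted p = 0.024, 0.934% called). With spike-in scaling, where 35.6% of genes were called, the genes that passed were *Cd274* (adjusted p = 0.0051), *Cd80* (adjusted p = 0.038), *Cd200r1* (adjusted p = 0.021) and *Sirpa* (adjusted p = 0.023). All members called with TMM scaling over the brain replicates then lost their call: *Pdcd1lg2* (adjusted p = 0.18), *Lgals9* (adjusted p = 0.19), *Cd40* (adjusted p = 0.76) and *Cd86* (adjusted p = 0.33). Beside this, the summed T and NK cell markers had medians of 492, 649, 844 and 313 CPM in mice 22, 23, 24 and 26. In the same order the medians were 13.7, 33.4, 693 and 132 CPM for neutrophil, 118, 124, 297 and 40.6 CPM for B cell, 235, 230, 474 and 338 CPM for dendritic cell and 2044, 2357, 3212 and 1983 CPM for microglia markers. The depth of brain replicates was 3809705 to 4825813 counts in mouse 23 and from 1553616 to 5689644 in the others. The study used male and female mice, and sex was not a term of the fit. A mouse, its sex and the handling of its cells cannot be told apart in this test, and the part of other cells in these differences was not tested.

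**Figure D5:**
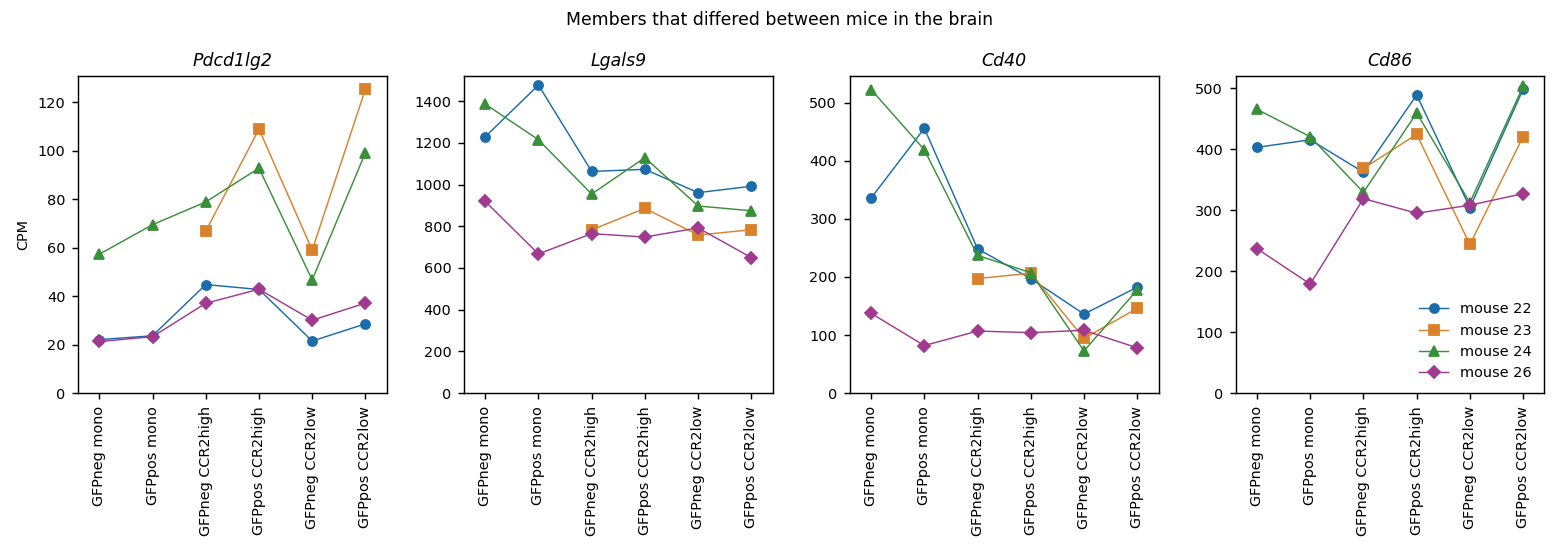
Normalized read count (CPM, vertical axis) of Pdcd1lg2, Lgals9, Cd40 and Cd86 in the 6 brain populations (horizontal axis), with the mouse shown by the symbol and the line. Pdcd1lg2 is higher in mice 23 and 24 than in mice 22 and 26 in all 6 populations, with no glioma monocytes of mouse 23, and Cd40 and Lgals9 are lowest in mouse 26 in 5 of 6.

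The molecules around the members were read from lists of related genes, here for GFPneg glioma monocytes against Ly6Chigh monocytes, where 13.8% of all genes were called. Of the other B7-family ligands, 3 were tested, and *Cd276* was higher (17 ± 7.60 against 0.787 ± 0.335 CPM, 4.41 ± 0.78, adjusted p = 0.00030), whereas *Vsir*, listed under its older symbol *4632428N05Rik*, was lower (512 against 965 CPM, -0.91 ± 0.31, adjusted p = 0.048). Of 5 TNF-family costimulatory ligands tested, *Tnfsf9*, the ligand of 4-1BB, was higher (80.3 against 6.28 CPM, 3.70 ± 0.85, adjusted p = 0.0033). Of 9 other checkpoint ligands and adhesion partners, 5 were higher and 1 lower. *Cd200*, the ligand of the CD200 receptor, was at 31.7 ± 4.08 against 0.627 ± 1.09 CPM (5.10 ± 0.68, adjusted p = 6.4e-06), and *Cd47*, the ligand of SIRP-alpha, at 609 ± 167 against 698 ± 79.7 CPM (-0.20 ± 0.41, adjusted p = 0.85). *Fgl2* (1211 against 362 CPM), *Pvrl2* (32.0 against 4.06 CPM), *Pvr* (76.9 against 16.4 CPM) and *Icam1* (526 against 269 CPM) were higher, and *Ceacam1*, a TIM-3 ligand, was lower (52.1 against 528 CPM, -3.34 ± 0.51, adjusted p = 4.1e-05).

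Of 11 other inhibitory receptors of myeloid cells, 4 were higher and 3 lower. *Cd300lf* (339 against 33.4 CPM), *Fcgr2b* (1338 against 451 CPM), *Lair1* (423 against 156 CPM) and *Lilrb4* (805 against 442 CPM) were higher, and *Cd300a* (281 against 1065 CPM), *Clec12a* (120 against 338 CPM) and *Clec4a2* (76.9 against 225 CPM) were lower. Of 13 signal transducers of SIRP-alpha, the CD200 receptor and CD40, *Dok2*, an adaptor of the CD200 receptor, was higher (109 against 25.7 CPM, 2.09 ± 0.33, adjusted p = 6.2e-05), as was *Traf1*, of the CD40 pathway (110 against 15.7 CPM, 2.82 ± 0.75, adjusted p = 0.011). *Ptpn6*, which encodes the phosphatase SHP-1 recruited by inhibitory receptors, was at 934 against 1088 CPM (adjusted p = 0.73). Among genes of the interferon-gamma pathway, which induces *Cd274* in many cells, *Jak2* was higher (49.3 against 10.04 CPM, 2.28 ± 0.55, adjusted p = 0.0048), *Ifngr1* was lower (688 against 1843 CPM, -1.42 ± 0.22, adjusted p = 4.8e-05), and *Irf1* stood at 419 ± 197 against 348 ± 93.2 CPM (adjusted p = 0.71). Against the same Ly6Chigh replicates the counts higher and lower in CCR2high macrophages were 1 and 1 for B7-family ligands, 3 and 0 for TNF-family ligands, 3 and 1 for other checkpoint ligands, 3 and 3 for inhibitory receptors and 2 and 0 for transducers, where 17.8% of all genes were called. In CCR2low macrophages they were, in this order, 1 and 0, 2 and 1, 3 and 1, 3 and 4, and 1 and 1, where 20.2% of all genes were called.

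The receptors that the members meet on lymphocytes were also read. *Pdcd1*, which encodes PD-1, was at 41.3 ± 12.5 CPM in GFPneg glioma monocytes against 0.279 ± 0.483 in Ly6Chigh monocytes (adjusted p = 4.6e-05), *Icos* at 40.1 ± 3.97 against 0.584 ± 0.563 CPM (adjusted p = 3.5e-05), and *Ctla4* at 54.7 ± 17.8 CPM against 0 counts in all 3 Ly6Chigh replicates (adjusted p = 2.6e-05). *Cd28* (19.8 ± 4.93 against 7.86 ± 12.2 CPM, adjusted p = 0.48) and *Cd40lg* (4.15 ± 2.48 against 1.21 ± 1.05 CPM, adjusted p = 0.47) did not pass. Beside this, 7 of 7 T and NK cell markers and 4 of 4 microglia markers were higher in each GFPneg brain population than in Ly6Chigh monocytes, and their part in the values of the members was not tested. Of 6 dendritic cell markers, which are relevant since dendritic cells carry *Cd80*, *Cd86* and *Cd40*, 2 were higher in glioma monocytes, and they summed to 240 to 569 CPM there, 100 to 219 CPM in Ly6Chigh and 578 to 1900 CPM in Ly6Clow monocytes. Of 4 B cell markers and 3 neutrophil markers tested, 0 were called in glioma monocytes by edgeR, and these sums were 37.1 to 925 and 4.22 to 1080 CPM in the brain and 58.7 to 443 and 123 to 875 CPM in blood.

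The genes whose log2 CPM followed a member most closely over the 28 replicates, among 11565 other genes, are given as a description, with no test, since the blood and brain groups and the libraries are shared by all of them. For *Cd274* these were *Gpr171* (Pearson's r 0.967), *Il21r* (0.964) and *Gbp6* (0.958), and for *Pdcd1lg2* *Plxdc2* (0.954), *Gzmb* (0.954) and *Socs2* (0.952). *Cd86* was nearest to *Scimp* (0.968), *Aif1* (0.964) and *Lgals3bp* (0.959), and *Cd80* to *Ppp1r15a* (0.917), *Nfkbid* (0.904) and *Egr2* (0.881). *Lgals9* was nearest to *Clec5a* (0.976), *Cxcl10* (0.969) and *Cfb* (0.965), *Cd40* to *Batf2* (0.967), *Phf11d* (0.950) and *Icam1* (0.932), and *Icosl* to *Ciita* (0.855), *Cd40* (0.836) and *Batf2* (0.817). *Havcr2* was nearest to *Ccnd2* (0.908), *H2-Q6* (0.893) and *H2-Q7* (0.883), *Cd200r1* to *Gcsh* (0.925), *Dhrs3* (0.922) and *Glrx* (0.920), and *Sirpa* to *Amz1* (0.861), *Snx19* (0.858) and *Ncf1* (0.838).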

How the data were processed

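RNA of 8 FACS-sorted populations of 4 tumor-bearing mice was amplified with a SMARTer low-input kit and sequenced on a NextSeq. The authors aligned reads to the mouse genome with STAR, removed duplicates with Picard 1.8.4 and counted reads per GENCODE gene with HTSeq in strict intersection mode, and deposited raw counts per gene, which were used as they are. Of 30 libraries, 1 (Ly6Clow monocytes of mouse 23) had fewer than 6000 genes with 5 reads and was left out in favour of the other library of that sample, and the libraries of GFPpos glioma monocytes of mouse 22 were summed, which gave 28 replicates. Reads assigned to no gene (6.28 to 17.4%) or to several (1.58 to 1.90%) and 92 ERCC rows entered neither the library sizes nor the tests.

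A quasi-likelihood fit in edgeR 4.0.16 (R 4.3.3, TMM scaling, filterByExpr) covered all 8 populations, which share 1 estimate of the spread, and p-values were adjusted by Benjamini-Hochberg over all 11566 genes, with calls under 0.05. SE is the log2 fold change over the square root of F, CPM uses TMM-scaled library sizes, and log2 CPM a prior count of 2. With 3 or 4 mice a group, depth limits members with few counts, for which 3 counts were taken as what a 0 allows. The fit was also run on simulated data, with large changes planted in the more abundant genes and no differences between mice. That run does not bear on members with few counts. Same-numbered replicates came from the same mouse, so the numbers pair the samples. The correlation of their deviations from the group means was 0.0758 to 0.674 between brain populations, 0.0869 to 0.255 between the blood populations and -0.0971 to 0.0658 between blood and brain. Alternatives were DESeq2 1.42.0 (size factors and Wald test), ERCC scaling, no filter, only the populations compared, mouse as a replicate block, the libraries of a sample taken singly, and each replicate left out. The members and lists were chosen with earlier results of these data known. All 10 members were named, with the called genes of the lists in glioma monocytes against Ly6Chigh monocytes, the partners of members, and the 3 genes most correlated with each member. A result of the interferon-gamma list, with its counts, is left out here. Positions are from GENCODE vM21.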

Additional observations from a re-analysis of the deposited data

Results flagged for a closer look

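In the groups of 4 replicates, each member was looked at for a replicate that stands apart, where its gap to the nearest replicate, as a share of the range of the group, is above the 95% critical value of Dixon's test. Of 40 such groups 2 met this, and chance alone gives about 1 in 20. *Cd86* in GFPneg CCR2low macrophages was 244 CPM in mouse 23, against 304 to 312 CPM in the other 3 mice (gap 0.879 of the range). *Cd40* in GFPpos CCR2high macrophages was 104 CPM in mouse 26, against 197 to 207 CPM in the other 3 mice (gap 0.90 of the range).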

How the results depend on the processing

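The counts of members called moved as follows. With spike-in scaling, 2, 2 and 1 members were called in GFPneg glioma monocytes, CCR2high and CCR2low macrophages against Ly6Chigh monocytes (from 7, 6 and 5) and 0 by edgeR between Ly6Chigh and Ly6Clow monocytes (from 2), with 5 at an unadjusted p under 0.05. With only the populations compared in the fit, 2 were called in each brain population against Ly6Clow monocytes (from 7, 7 and 5) and 0 by edgeR between the blood populations, with 1 at an unadjusted p under 0.05. With mouse as a replicate block, 6, 6 and 6 were called against Ly6Chigh monocytes, 7, 8 and 8 against Ly6Clow monocytes and 4 between the blood populations, and beside the changes given above the block changed no other call of a member. The blood comparison gave 6 with the DESeq2 Wald test, 1 with no filter, 1 with the earlier or the later library of a sample alone, 4 without both replicates of the highest spike-in share and 1 to 4 when replicates were left out in turn. Against Ly6Chigh monocytes the DESeq2 Wald test called 8, 7 and 7 members, as did the fit of only the populations compared, and against Ly6Clow monocytes the Wald test called 7, 8 and 7. With a replicate left out, 5 to 6, 5 to 6 and 5 were called against Ly6Chigh and 6 to 8, 6 to 10 and 5 to 7 against Ly6Clow monocytes, where the highest in each was without Ly6Clow monocytes of mouse 24. With no filter, *Cd80* in glioma monocytes (adjusted p = 0.121) and *Cd40* in CCR2high macrophages (adjusted p = 0.115) against Ly6Chigh monocytes, *Cd80* in glioma monocytes (adjusted p = 0.0722) and CCR2high macrophages (adjusted p = 0.0971) against Ly6Clow monocytes, and *Sirpa* between the blood populations (adjusted p = 0.0548) lost their call. With the earlier library of each sample alone, 5, 4 and 4 were called against Ly6Chigh and 6, 5 and 5 against Ly6Clow monocytes, and without both replicates of the highest spike-in share 8, 8 and 7, and 6, 6 and 6. Against Ly6Clow monocytes spike-in scaling gave 6, 6 and 5, and the size factors of DESeq2 7, 7 and 6. Glioma monocytes against CCR2low macrophages gave 1 without both replicates of the highest spike-in share. The test of mouse gave 2 in GFPneg and 1 in GFPpos populations alone (from 4), where fewer replicates were fitted. With spike-in scaling that test again gave 4, all of them other members than with TMM scaling. The cause of these changes was not tested. No called member changed its direction. Of 608 values of called members under alternatives, 528 kept their call and 80 lost it. Of 1459 values not called in the main fit, 48 passed. The alternatives share replicates, so these values are not independent of each other. The later library alone, the high spike-in replicates left out and the subsets in the test of mouse were chosen after seeing the data. With 3 or 4 mice a group and as few as 0 to 22 counts of *Cd80* and *Pdcd1lg2* in a blood replicate, depth limits these members most.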
